A study of Homo sapiens with 30 samples.

Results

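The HOX cluster genes were examined in chromatin immunoprecipitation sequencing (ChIP-Seq) data from MDA-MB-231, a breast cancer cell line of the triple-negative type. Members were the protein-coding genes of the GRCh37 annotation whose symbol is HOXA, HOXB, HOXC or HOXD followed by digits, and this rule found 39 of 20098 protein-coding genes. The HOXA cluster held 11 of them over 107 kb of chromosome 7, HOXB 10 over 200 kb of chromosome 17, HOXC 9 over 117 kb of chromosome 12 and HOXD 9 over 98.2 kb of chromosome 2. ChIP-Seq of SAP30, SIN3A and SIN3B was done on parental cells alone. RNA polymerase II (Pol II), H3K4me3 and H3K9Ac were mapped both there and in the SAP30-KO1 line, whose cells carry a CRISPR/Cas9 knockout of SAP30 and are a mixture of several clones grown from single cells. Each of these 9 groups had 2 replicate libraries, and no source says that the replicates came from separate cultures.

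HOX genes encode homeodomain transcription factors that give cells their position along the body axis, and they lie in each cluster in the order in which they are used from head to tail. Paralog groups 1 to 3 are called anterior here, 4 to 8 central and 9 to 13 posterior. A HOX gene in use carries H3K4me3 and H3K9Ac, marks of active promoters, whereas silent HOX genes are typically held by Polycomb proteins, which were not measured. SAP30 is a subunit of the SIN3 corepressor complex, and SIN3A and SIN3B are its alternative scaffolds.

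The measurement in each library was a list of peak summits, the single bases at which peaks were highest. A promoter summit is the best-scoring summit within 1000 bp of an annotated start site, and its rank is its place in its own list, from 0% for the best score to 100% for the last. Libraries held 10861 to 54622 summits, and their sequencing depth is unknown. A missing promoter summit means only that no peak past the authors' threshold was highest within 1000 bp of a start. A peak that reaches a promoter but is highest farther away is counted as missing too. A weaker peak in all cells and a peak in fewer cells cannot be told apart. VIM, CD44 and AXL, genes of mesenchymal cells, had a promoter summit in all 18 lists, and ZEB1 in all but 1 SIN3A list. Of the luminal genes GATA3 had one in none, but the others were not empty. ESR1 had H3K4me3 in both lists of each line and H3K9Ac in both SAP30-KO1 lists only, PGR had H3K4me3 in both lists of each line and SAP30 in both of its lists, and CDH1, an epithelial gene, had H3K4me3 in both parental lists only. The SAP30 gene itself kept promoter summits in both lists of all 9 groups, so these lists do not show its knockout.

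The promoter sequences below were chosen to set promoters that carried summits beside CpG-rich promoters that carried none. They are the 250 bases before the start site in the RefSeq promoter table (GRCh38.p14), each matched exactly to a single place in GRCh37, printed 5′ to 3′ on the gene's strand with CpG in capitals. HOXD1 (chr2:177053146-177053395, plus strand), HOXA13 (chr7:27239711-27239960, minus strand), HOXC4 (chr12:54410422-54410671, plus strand) and HOXD4 (chr2:177016028-177016277, plus strand) had promoter summits of several groups. HOXD8 (chr2:176994183-176994432, plus strand) and HOXA7 (chr7:27196295-27196544, minus strand) had none in any list. The table gives HOXC5 the same window as HOXC4, an upstream start within the HOXC cluster.
HOXD1: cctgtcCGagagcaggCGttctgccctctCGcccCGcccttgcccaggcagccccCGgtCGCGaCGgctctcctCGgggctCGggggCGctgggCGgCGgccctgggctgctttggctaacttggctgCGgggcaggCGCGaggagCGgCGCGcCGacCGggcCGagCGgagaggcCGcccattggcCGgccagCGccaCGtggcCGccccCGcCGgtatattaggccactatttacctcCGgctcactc
HOXA13: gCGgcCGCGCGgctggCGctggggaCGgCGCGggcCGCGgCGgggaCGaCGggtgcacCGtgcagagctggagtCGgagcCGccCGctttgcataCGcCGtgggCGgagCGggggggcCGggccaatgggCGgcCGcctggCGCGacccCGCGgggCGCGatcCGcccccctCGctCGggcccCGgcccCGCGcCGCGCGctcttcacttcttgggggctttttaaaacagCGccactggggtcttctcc
HOXC4: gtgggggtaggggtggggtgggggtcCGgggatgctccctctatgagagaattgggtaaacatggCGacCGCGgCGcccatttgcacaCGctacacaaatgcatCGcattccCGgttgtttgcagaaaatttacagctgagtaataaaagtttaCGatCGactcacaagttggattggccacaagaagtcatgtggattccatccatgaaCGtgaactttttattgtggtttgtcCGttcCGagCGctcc
HOXD4: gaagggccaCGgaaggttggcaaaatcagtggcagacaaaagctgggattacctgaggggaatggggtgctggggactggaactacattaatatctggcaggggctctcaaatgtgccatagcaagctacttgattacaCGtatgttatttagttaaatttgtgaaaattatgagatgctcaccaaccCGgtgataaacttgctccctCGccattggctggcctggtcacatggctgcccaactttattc
HOXD8: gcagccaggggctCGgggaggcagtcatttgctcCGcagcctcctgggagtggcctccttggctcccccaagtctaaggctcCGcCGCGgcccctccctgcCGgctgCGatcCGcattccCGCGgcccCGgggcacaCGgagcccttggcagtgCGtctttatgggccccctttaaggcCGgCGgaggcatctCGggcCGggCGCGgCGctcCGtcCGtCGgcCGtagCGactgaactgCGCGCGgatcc
HOXA7: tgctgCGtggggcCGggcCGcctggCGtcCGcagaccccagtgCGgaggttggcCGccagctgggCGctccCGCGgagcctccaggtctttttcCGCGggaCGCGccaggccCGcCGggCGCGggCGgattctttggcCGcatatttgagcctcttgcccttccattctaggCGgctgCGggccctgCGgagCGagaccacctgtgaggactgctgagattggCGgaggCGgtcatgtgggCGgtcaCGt

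The table held 27 promoters of 20 members, which are 26 distinct windows since that of HOXC5 repeats that of HOXC4. Members not in it included HOXA5, HOXB2 to HOXB9, HOXB13, HOXC6, HOXC8 to HOXC13 and HOXD9. Over the full windows of 300 bases, which run to 50 bases past the start, the HOXA13 promoter held 44 CpG and stood at the 96.5th percentile of 35116 promoters, whose median was 14. HOXD1 had 36 CpG, HOXC4 15 and HOXD4 4. CpG content did not separate the promoters that carried summits from those that did not. The 4 distinct windows of members with a summit in both lists of a group held 4 to 44 CpG (median 25.5), and the 22 others 0 to 34 (median 22.5). Several of the 22 belong to HOXA3, among them the window with 0 CpG, so this gene weighs on their median. Some HOXA3 windows start 1238 to 5753 bp from any start site at which summits were counted. HOXD8 with 34 and HOXA7 with 31 lay close to HOXD1.

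The E-box CACGTG was found in 9 of the 26 distinct member windows on either strand, of which 1 was that of HOXD1, and in 7.26% of all promoters. The AP-1 core TGACTCA occurred in 0 of 26 and in 4.95% of all, and the YY1 core ATGGCGG in 1 of 26, that of HOXD3, and in 5.55% of all. The motifs do not contain one another. These letters describe the windows and say nothing of the binding of a factor.

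**Figure D1:**
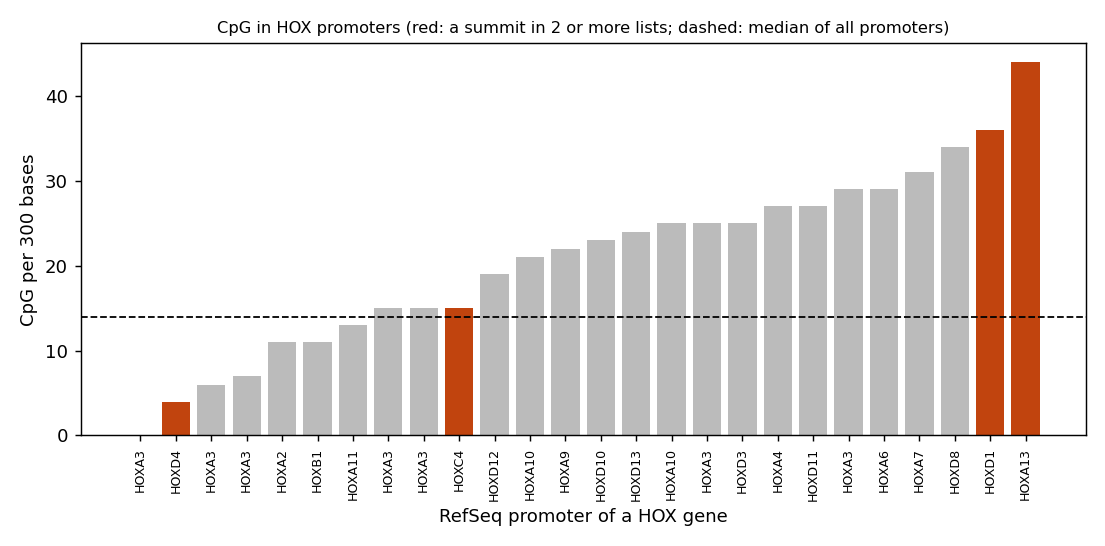
CpG dinucleotides per window of 300 bases for each RefSeq promoter of a HOX gene, with genes that have several promoters repeated and HOXC5 left out because its window is that of HOXC4. Red bars are genes with a promoter summit in at least 2 lists, and they span the range from HOXD4 with 4 to HOXA13 with 44, on both sides of the dashed median of 14 for all promoters.

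Most HOX promoters were empty, which here means that they had no promoter summit. In MDA-MB-231 cells 28 of 39 members had no promoter summit in any of the 18 lists, compared with 32.2% of all protein-coding genes. They included HOXA2 to HOXA7, HOXA9 and HOXA11, HOXB1 to HOXB4, HOXB7, HOXB8 and HOXB13, HOXC8 and HOXC10 to HOXC13, and HOXD3 and HOXD8 to HOXD13. From their start sites the nearest H3K4me3 or H3K9Ac summit of any list lay 1663 bp away at HOXD12, 50246 bp away at HOXC13 and 5193 bp away at the median gene. A further 3 members had a summit in a single list only. These were HOXA10, with H3K4me3 at rank 99.4% in parental replicate 2, HOXB6, with H3K4me3 at 91.6% in parental replicate 1, and HOXC6, with H3K9Ac at 68.1% in parental replicate 2. The HOXC6 summit lay 937 bp downstream of a start, near the edge of the window. With a window of 3000 bp, HOXC6 had H3K4me3 and H3K9Ac in all 4 lists of each mark. Of the 39 members, 31 lacked H3K4me3 and H3K9Ac in both lists of every group, whereas 34.5% of all protein-coding genes did.

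The remaining 8 members had a promoter summit in both lists of at least 1 group. They were scattered over the 4 clusters, with HOXA13 in HOXA, HOXB5 and HOXB9 in HOXB, HOXC4, HOXC5 and HOXC9 in HOXC, and HOXD1 and HOXD4 in HOXD. By position, 1 of 8 anterior, 4 of 15 central and 3 of 16 posterior genes were among them. No cluster was marked from end to end.

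**Figure D2:**
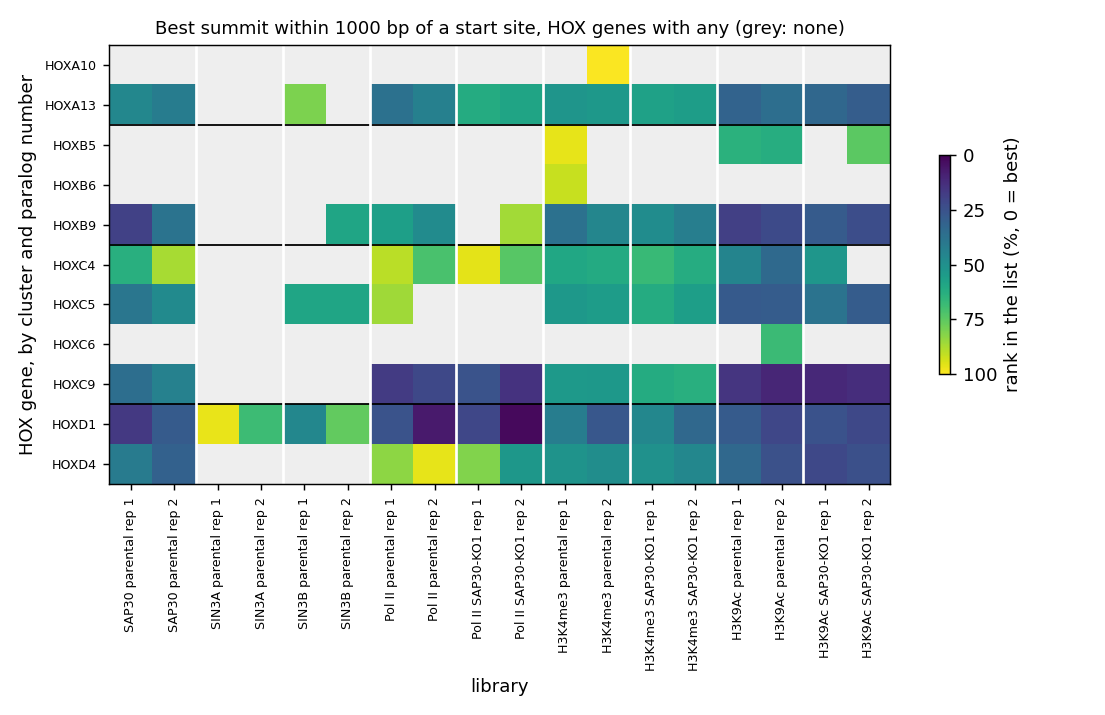
Rank of the best summit within 1000 bp of a start site (color, 0% best) for the 11 HOX genes with a summit in at least 1 list (rows, by cluster and paralog number) in the 18 libraries (columns), with grey for no summit. HOXD1 is the only row filled in all 18 libraries, and the 28 empty genes are not drawn.

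SAP30 had a promoter summit in both lists at 7 of 39 HOX genes (17.9%), against 61.2% of all protein-coding genes. These were HOXA13, HOXB9, HOXC4, HOXC5, HOXC9, HOXD1 and HOXD4, and they were the same 7 genes that carried parental H3K4me3 in both lists. Among all genes with parental H3K4me3 in both lists, 93.9% had SAP30, so 7 of 7 was near the background. The SAP30 summits were of middling rank. HOXD1, whose mouse ortholog acts in pain-sensing neurons, ranked 16.6% and 28.8% in the 2 SAP30 lists. HOXB9, which acts with its paralogs in mammary gland development, ranked 19.4% and 38.0%, and HOXD4, a patterning gene of the hindbrain and neck, 41.6% and 31.1%. HOXC9, a determinant of thoracic motor neurons, ranked 36.2% and 43.9%, and HOXC5 39.2% and 47.9%. The weakest were HOXA13, required for the distal limb and the genitourinary tract, at 46.3% and 41.9%, and HOXC4 at 63.0% and 87.0%. In replicate 2 the HOXC4 region also held a SAP30 summit at 63.6%, beyond 1000 bp of the start. The median over the 7 was 39.2% and 41.9%, whereas over all genes with a SAP30 promoter summit it was 16.8% and 17.3%.

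The SIN3 scaffolds were found at few HOX genes. SIN3A had a promoter summit in both lists at HOXD1 alone, 1 of 39 (2.56%) against 31.5% of all genes, and HOXD1 ranked 96.7% there in replicate 1, near the end of the list, and 68.6% in replicate 2. SIN3B had one in both lists at HOXC5 and HOXD1, 5.13% against 51.7%. HOXC5 ranked 58.7% and 58.6% and HOXD1 46.4% and 76.0%. HOXA13 had SIN3B at 80.1% in replicate 1 only, and HOXB9 at 58.6% in replicate 2 only. HOXC4, HOXC9 and HOXD4 thus had SAP30 in both lists and neither SIN3 protein in any list.

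Of the 7 members with SAP30 in both lists, 1 had SIN3A in both (14.3%) and 2 had SIN3B (28.6%), whereas 50.5% and 82.8% of all genes with SAP30 did. HOXD1 was the 1 member with all 3 proteins in both lists (2.56%), against 30.2% of all protein-coding genes. The median SAP30 rank of these 7 members was worse than that of all genes with SAP30, as given above, and its part in the SIN3 shares was not tested. At HOXD1 the SAP30 summits lay from 19 bp before to 45 bp after the start site, those of SIN3A from 11 bp before to 110 bp after it and those of Pol II 1 to 29 bp after it. The SIN3B summits were wider apart, from 238 bp before to 219 bp after the start. H3K4me3 and H3K9Ac lay downstream, at 172 to 327 bp.

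Pol II had a promoter summit in both parental lists at 6 of 39 HOX genes (15.4%), against 57.7% of all genes. They were the SAP30 genes other than HOXC5, 6 of 7 (85.7%), with a background of 91.9% of all genes with SAP30. HOXC9 and HOXD1 held the best Pol II ranks, 17.2% and 21.5% for HOXC9 and 25.6% and 7.16% for HOXD1. HOXA13 ranked 37.3% and 43.7% and HOXB9 56.6% and 48.1%. The weakest summits within 1000 bp were those of HOXC4, at 89.7% and 71.3%, and HOXD4, at 82.8% and 96.1%. Beyond 1000 bp of the start, the HOXC4 region held parental Pol II at 38.5% in replicate 2. The HOXD4 region likewise held it at 65.6% and 76.3%, so the window set these ranks in part. HOXC5 had Pol II at 85.8% in replicate 1 only.

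H3K4me3 was found in both parental lists at 7 HOX genes (17.9%, against 63.8% of all genes) and H3K9Ac at 8 (20.5%, against 61.4%). The additional gene with H3K9Ac was HOXB5, a gene of lung and enteric nerve development, at 63.8% and 62.5%. It had H3K4me3 in parental replicate 1 only, at 96.3%, and neither SAP30, SIN3 nor Pol II in any list. For H3K9Ac, HOXC9 ranked 15.3% and 10.9%, HOXB9 19.1% and 22.5%, HOXD1 28.5% and 21.3%, HOXC5 28.2% and 29.0%, HOXD4 33.7% and 24.7%, HOXA13 32.0% and 36.0% and HOXC4 45.0% and 34.3%. In SAP30-KO1 cells the counts were 7 for H3K4me3 (against 62.8%), 6 for H3K9Ac (15.4%, against 61.1%) and 5 for Pol II (12.8%, against 53.9%). The H3K4me3 ranks of the 7 genes in parental cells ran from 27.0% at HOXD1 to 61.2% at HOXC4. Where HOX promoters were marked, the median rank of H3K4me3 was 52.2% and 53.2% against 24.0% and 25.9% over all genes, and that of H3K9Ac 30.3% and 26.8% against 11.9% and 12.3%.

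**Figure D3:**
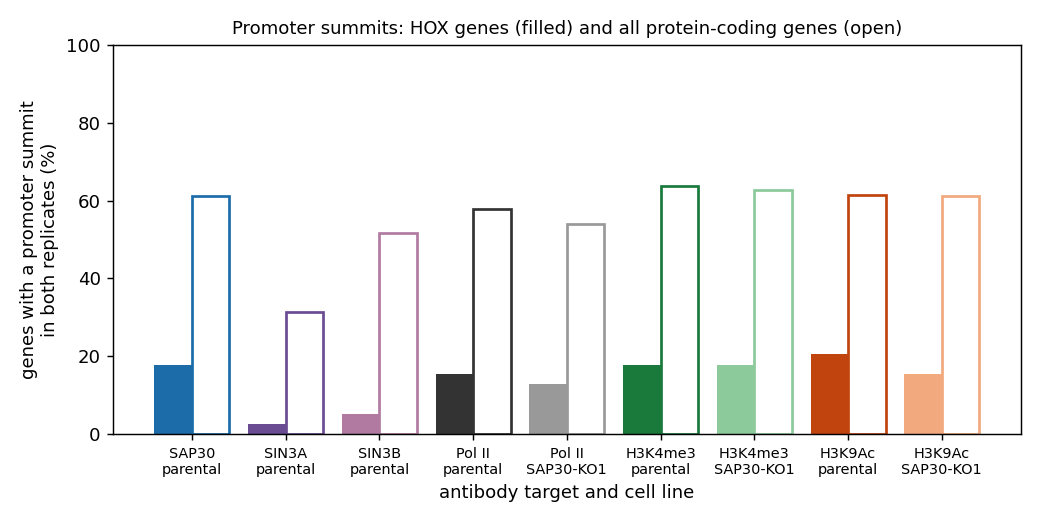
Share of genes with a promoter summit in both replicates (%), for the 39 HOX genes (filled bars) and all 20098 protein-coding genes (open bars), in each of the 9 groups. The filled bars lie between 2.56% for SIN3A and 20.5% for parental H3K9Ac, below the open bar in all 9 groups.

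The annotated start sites set where these summits were counted. Over the 108 best summits of members, distances to the start ran from 1 to 973 bp with a median of 328.5 bp, 88 lay downstream and 20 upstream, and none was shared by different members. At HOXB9 the H3K9Ac summits lay 917 to 966 bp downstream, near the edge of the window. HOXC4 and HOXC9 had their summits at an alternative annotated start, at 54410715 and 54389293 on chromosome 12, and none at the canonical starts, at 54447619 and 54393945. The HOXC4 and HOXC5 summits were separate, with those of HOXC5 206 to 475 bp downstream of its own start at 54426834, far from the upstream window that RefSeq gives it.

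Along the clusters, with 10 kb added at each side, summits of any library within 1000 bp of each other formed 28 regions. Of these, 10 held a promoter summit of a member and 18 did not. H3K9Ac was present in all 4 of its lists in 15 regions, 8 of them away from member promoters, and SAP30 in both lists in 12, 5 of them away. SIN3A occurred in 1 region, that of HOXD1, and SIN3B in both lists in 2, those of HOXC5 and HOXD1. Regions seen in a single list numbered 6. The same shares were not counted over the rest of the genome, so these counts do not tell whether the clusters are unusual.

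The 5 regions with SAP30 in both lists away from member promoters lay in all 4 clusters. In HOXA, chr7:27200409-27200604 lay between HOXA7 and HOXA9, both of them empty, with H3K9Ac ranks of 22.5% and 32.7% in parental cells and SAP30 ranks of 68.6% and 64.0%. In HOXD, chr2:176961797-176962860 lay between the empty HOXD13 and HOXD12, 1663 bp from a HOXD12 start, with H3K9Ac at 18.5% and 28.9% and SAP30 at 35.1% and 49.3%. In HOXC, chr12:54398805-54400161 lay 2608 bp from HOXC8 and had Pol II in all 4 lists, at 61.3% and 31.9% in parental cells, beside SAP30 at 38.4% and 52.8%. These 3 regions had H3K4me3 in all 4 of its lists as well.

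The other 2 regions of this kind were in HOXB. One, chr17:46613621-46614918 between HOXB1 and HOXB2, had H3K9Ac in all 4 lists, at 30.9% and 20.1% in parental cells, and H3K4me3 in none. The other, chr17:46661759-46663729 inside HOXB3 and 1775 bp from one of its starts, had H3K9Ac at 24.9% and 16.8% and H3K4me3 at 60.9% and 59.1%. SAP30 ranked 98.8% and 58.0% in the former and 89.7% and 56.5% in the latter. The HOXB3 region also had SIN3B in replicate 2 only, at 33.4%. The region between HOXA7 and HOXA9 had SIN3B in replicate 1 only, at 58.7%. In HOXA, a region at chr7:27155083-27155360 inside HOXA3 and 116 bp from the start of the antisense RNA gene HOXA-AS2 had both marks in all lists and no SAP30, SIN3 or Pol II.

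**Figure D4:**
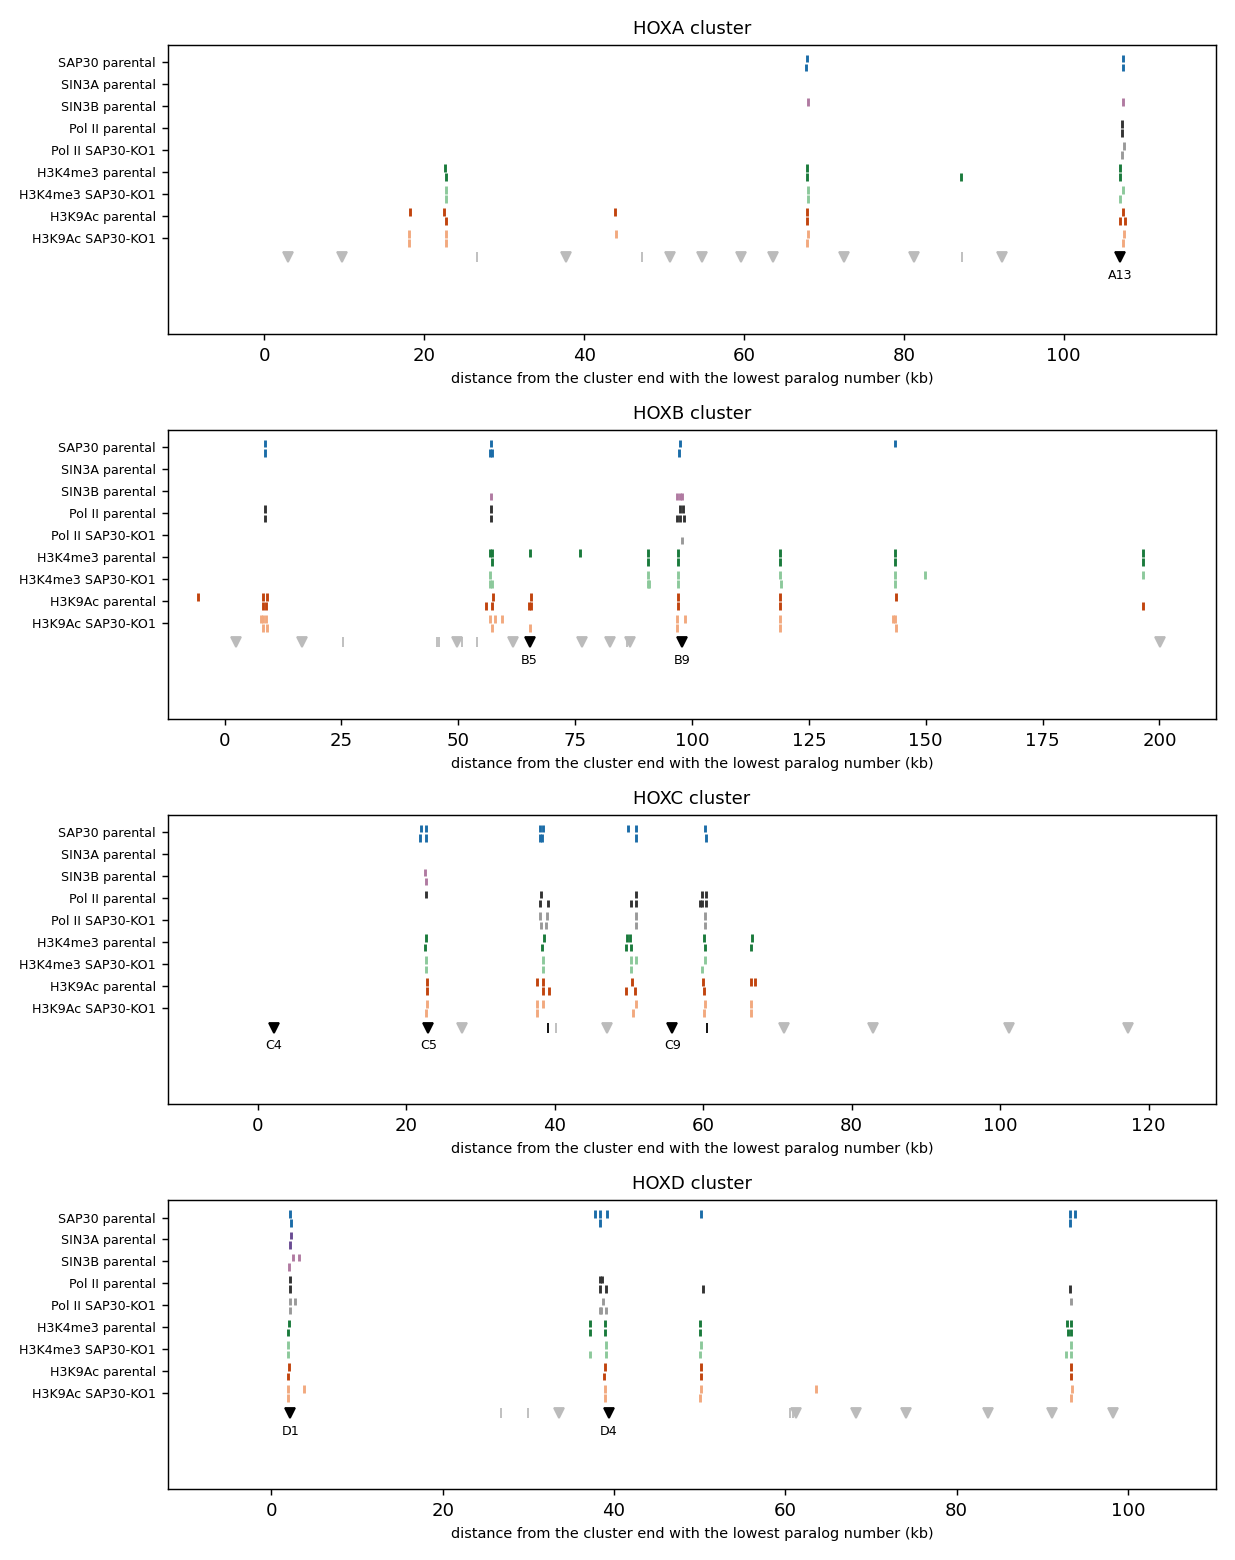
Peak summits (ticks, with replicate 1 above replicate 2) of the 9 groups along the HOX clusters, in kb from the cluster end with the lowest paralog number. Triangles are canonical start sites and short marks below the rows other annotated starts, black and named for genes with a promoter summit in both lists of a group and grey for the others. Summits gather in a few places in each cluster, and the SIN3A rows are empty except at HOXD1.

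Whether the loss of SAP30 changed these promoters was examined for Pol II, H3K4me3 and H3K9Ac. No HOX gene lost or gained a promoter summit for any of the marks. A loss or gain means a summit in both lists of one line and in neither list of the other. Only a member with a summit in both parental lists could lose it, and there were 6 (Pol II), 7 (H3K4me3) and 8 (H3K9Ac). A gain required a summit in both SAP30-KO1 lists, found at 5, 7 and 6 members in the same order. Among all protein-coding genes, 1.34% lost and 0.134% gained Pol II, 0.916% lost and 0.104% gained H3K4me3, and 0.423% lost and 0.328% gained H3K9Ac. Of the genes with the summit in both parental lists, 270 of 11595 lost Pol II, 184 of 12825 H3K4me3 and 85 of 12336 H3K9Ac. With so few members able to lose or gain a summit, a count of 0 cannot tell them from other genes. A change in rank was therefore examined at the members with a summit in all 4 lists of a mark. With 2 libraries against 2, the smallest two-sided p of an exact permutation test is 0.33, so a gene whose ranks do not overlap between the lines cannot pass a test.

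Pol II at HOXA13 ranked 37.3% and 43.7% in parental cells. The ranks in SAP30-KO1 cells were 61.4% and 58.5%, and the means of the lines were 40.5% ± 4.54 (SD, n = 2) in parental and 60.0% ± 2.07 (SD, n = 2) in SAP30-KO1 cells. Both knockout libraries were worse than both parental ones. At HOXD4 the order was opposite, with 82.8% and 96.1% in parental and 81.0% and 53.0% in SAP30-KO1 cells. These were 1 of 5 members worse and 1 of 5 better, with 24.2% and 15.4% of all genes tested called in these directions. The HOXD4 call was lost with windows of 500 bp and 3000 bp and with lists of equal length. With 3000 bp the difference of its means went from −22.5 to −3.95 points, since parental Pol II summits of the same region that ranked 65.6% and 76.3% lay beyond 1000 bp. HOXC4, HOXC9 and HOXD1 overlapped between the lines. HOXB9 had Pol II at 56.6% and 48.1% in parental cells, whereas in the knockout line replicate 2 alone had it, at 86.2%.

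H3K4me3 was worse in both SAP30-KO1 lists than in both parental lists at 4 of 7 members and better at 0, with a background of 28.1% worse and 11.5% better. HOXC9 ranked 53.9% and 53.2% in parental and 61.6% and 62.9% in SAP30-KO1 cells, a mean difference of 8.68 percentage points. The others were HOXC5 with 4.39, HOXC4 with 4.25 and HOXA13 with 3.63 points. HOXB9, HOXD1 and HOXD4 overlapped. The median difference over the 7 was 4.25 points, and over all 12531 genes tested it was 2.09.

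H3K9Ac was worse at 2 of 6 members and better at 1, with a background of 22.1% and 16.4%. HOXB9 ranked 19.1% and 22.5% in parental and 28.9% and 23.6% in SAP30-KO1 cells, and HOXC5 28.2% and 29.0% against 38.1% and 29.0%. HOXD4 was better, at 33.7% and 24.7% against 21.5% and 24.5%. In all 3 genes the closest libraries of the lines nearly touched. HOXB5 and HOXC4 had H3K9Ac in both parental lists and in 1 SAP30-KO1 list each, at 74.8% and 52.5%. The HOXC4 region nevertheless had H3K9Ac in both SAP30-KO1 lists, at 39.1% and 35.4%. Those summits lay beyond 1000 bp of the start, so the region kept the mark.

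These ranks depended on the other peaks of each list. When genes with a summit in all 4 lists of a mark were ranked among themselves, no member was worse for Pol II or H3K4me3. HOXA13 then ranked 72.0% and 88.5% for Pol II in parental and 93.6% and 88.1% in SAP30-KO1 cells, so that the lines overlapped, and its H3K4me3 difference, like those of HOXC4 and HOXC5, turned to −0.399, −0.415 and −0.116 points. For H3K9Ac, HOXB9 and HOXC5 remained worse, and HOXA13 in place of HOXD4 was better. With the lists of a mark limited to equal length, the call for Pol II at HOXA13 remained and the worse calls of H3K4me3 and H3K9Ac did not. On the scale of genes with H3K4me3 in all 4 lists, HOXD1 ranked from 53.2% to 82.3% and the other 6 HOX promoters from 74.5% to 95.8%.

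**Figure D5:**
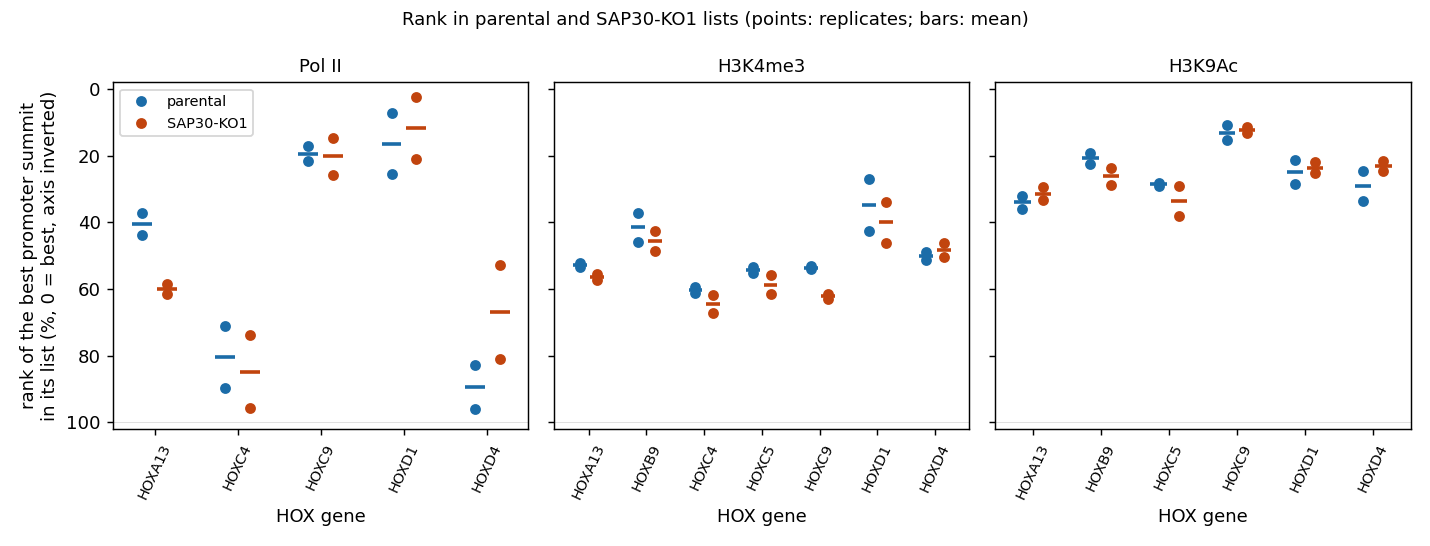
Rank of the best promoter summit (%, axis inverted so that the best is at the top) in parental (blue) and SAP30-KO1 (red) libraries for the HOX genes with a summit in all 4 lists of a mark. Points are replicates and bars the mean of 2. Pol II at HOXA13 shows the widest gap between the closest libraries of the lines, with parental points at 37.3% and 43.7% and SAP30-KO1 points at 61.4% and 58.5%.

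Along the whole HOXB cluster, fewer Pol II summits were listed in SAP30-KO1 than in parental libraries. The parental libraries held 4 and 5 Pol II summits there and the SAP30-KO1 libraries 0 and 1, the single one at HOXB9. In HOXA the counts were 1 and 1 in both lines, in HOXC 5 and 7 against 4 and 4, and in HOXD 3 and 5 against 4 and 4. The whole Pol II lists held 20736 and 23002 summits in parental and 23342 and 22123 in SAP30-KO1 cells, so the lengths of the whole lists overlapped between the lines. Over the genome, however, 14707 regions had Pol II in both parental lists and 12155 had it in both SAP30-KO1 lists. Such summit counts were not made for other stretches of the genome, and the cause of the HOXB difference was not tested.

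Of 9 regions in the clusters with Pol II in both parental lists, 2 had it in neither SAP30-KO1 list, and both were in HOXB, against 8.61% of all such regions. At chr17:46614459-46614544, between HOXB1 and HOXB2, parental Pol II ranked 63.2% and 61.1%, SAP30 summits lay 33 and 30 bp away, and the nearest SAP30-KO1 Pol II summits were 52631 and 54292 bp away. At chr17:46662834-46662970, inside HOXB3, parental Pol II ranked 99.7% and 72.7%, close to the end of a list, and SAP30 summits lay 8 and 59 bp away. Both places kept H3K9Ac in both SAP30-KO1 lists, at 33.3% and 23.8% and at 22.9% and 23.6%. For H3K4me3, 1 of 19 regions was lost, at chr12:54383247-54383362 near HOXC10 with ranks of 77.5% and 72.2%, against 6.22% of all such regions. H3K9Ac lost 0 of 16, against 5.18%, and no region of any mark was gained, against 0.889% of Pol II regions, 1.26% of H3K4me3 regions and 3.79% of H3K9Ac regions.

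The clusters also hold genes of long noncoding RNAs, and 23 of the 30 within them had no promoter summit in any list, with a background of 71.0% of all long noncoding RNA genes. HOTAIR, which lies between HOXC11 and HOXC12 and is known for its binding to Polycomb proteins in breast cancer, was among the 23. HOTTIP, whose RNA is known to bring MLL complexes to the posterior HOXA genes, starts opposite HOXA13, and HAGLR opposite HOXD1, and each shared the best summits of its neighbor. HOXC-AS2, beside the upstream start of HOXC9, had Pol II in both parental lists, at 51.1% and 80.7%, and in neither SAP30-KO1 list, while H3K4me3 and H3K9Ac were present in all lists. The region around it, which is that of HOXC9, kept Pol II in both SAP30-KO1 lists, at 25.7% and 14.6%, so that no Pol II region was lost there. HOXA-AS2 and LINC03057 and LINC02086, which lie between HOXB9 and HOXB13, had both marks in all lists without SAP30.

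Most of the MEIS, PBX and PKNOX genes, whose TALE homeodomain proteins are DNA-binding partners of HOX proteins, carried summits. Of these 9 genes 0 were empty in all lists, against 32.2% of all protein-coding genes. In both lists, 7 had SAP30 (against 61.2%), 5 SIN3B (against 51.7%) and 2 SIN3A (against 31.5%). Pol II was in both lists at 7 in parental (against 57.7%) and 7 in SAP30-KO1 cells (against 53.9%). PBX3 had promoter summits in all 18 lists. MEIS3 and PKNOX2 were the 2 without SAP30 in both lists. No difference between the lists of genes was tested.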

How the data were processed

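Libraries were grouped by antibody target and cell line as given in the labels, with 9 groups of 2 libraries that have a peak list. A further 8 input and 4 total H3 samples were not analysed here. The deposited lists hold peak summits of 1 bp with a score, which is the −log10 of a q-value as called by the authors in each library by itself. The lowest score was 1.30. The submitters' processing notes name hg19, FastQC 0.11.2, Bowtie2 2.3.3.1, Picard and MACS2 2.1.0. The control and options behind each list are not given in the sources used here. Depth is unknown, and scores grow with depth and enrichment, so they were used only to rank summits within a list.

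Start sites were those of basic transcripts in GENCODE release 44 lifted to GRCh37. Summits were counted as present in a group when both replicates had one. Ranks of 2 against 2 libraries were compared by whether they overlap. Per-library values are given for members with SAP30, SIN3A or Pol II in both lists, and for those with the largest rank changes among non-overlapping genes (at most 4 per mark); other members that are named were chosen after their values were seen. The members, the gene lists and the rules were chosen with earlier results of these data known. An item that is withheld is counted but not reported here by name. Alternatives were other windows, start sites, list lengths and ranks, and each replicate left out. The counting of lost summits and of shifted ranks was tested on simulated lists with well-spaced start sites. Those lists were simpler than the HOX clusters, so this checks the counting and not the calls at HOX genes. Python 3.11.15, NumPy 2.4.6 and SciPy 1.17.1 were used.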

Additional observations from a re-analysis of the deposited data

How the results depend on the processing

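The counts of HOX genes were recomputed under each alternative, and 148 of 199 values stayed within 1.5 times the reported count, as did 27 of 27 counts of summits along the clusters. The 148 include counts of 0 that stayed 0, among them those of gained summits, to which a ratio does not apply. With a promoter window of 500 bp, SAP30 was counted at 4 genes, H3K4me3 in SAP30-KO1 cells at 4 and parental H3K9Ac at 5, and the genes called were 0 better for Pol II (the HOXD4 call was lost), 2 worse for H3K4me3 and 1 worse for H3K9Ac. With 3000 bp, Pol II was lost at 1 gene (HOXB3) and H3K4me3 at 1 (HOXC8), 0 genes were better for Pol II, again without HOXD4, and 4 were worse for H3K9Ac. With canonical start sites, Pol II in SAP30-KO1 cells was counted at 3 genes and 2 were worse for H3K4me3. In the better-ranked 50% of each list, SIN3A and SIN3B were counted at 0 genes, all 3 proteins together at 0, Pol II at 3 in parental and 2 in SAP30-KO1 cells, and H3K4me3 at 2 in each line, and Pol II was lost at 1 gene (HOXA13) and H3K9Ac at 1 (HOXC4). In both SAP30-KO1 lists the HOXC4 region held better-ranked H3K9Ac summits beyond 1000 bp, as given above. A summit in either replicate gave SIN3B at 4 genes. Fewer summits enter under the narrower settings. The cause of the other shifts was not tested.

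Ranked among genes with a summit in all 4 lists, 0 genes were worse for Pol II and 0 for H3K4me3, 2 were better for H3K4me3, and the H3K4me3 differences of HOXA13, HOXC4 and HOXC5 reversed to −0.399, −0.415 and −0.116 points. On that scale 18.4% to 20.2% of all genes were called in each direction. With lists of equal length, an alternative chosen after seeing the data, 0 genes were better for Pol II (HOXD4 was not called), 0 worse and 1 better (HOXD4) for H3K4me3, and 0 worse and 2 better (HOXA13 and HOXD4) for H3K9Ac.

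The sources do not say whether replicate numbers pair the samples. Over genes, the rank deviations of same-numbered libraries correlated at 0.02 (Pol II), −0.01 (H3K4me3) and 0.01 (H3K9Ac). The ranks thus showed no shared deviation, but this cannot tell whether same-numbered libraries were prepared together. With a replicate block, Pol II was worse at 2 genes and better at 2, H3K4me3 worse at 5 and better at 1, H3K9Ac worse at 2 and better at 1, and 0 genes were lost or gained for any mark.

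With each library left out in turn, counts of genes with a summit ranged from 7 to 7 for SAP30, 1 to 1 for SIN3A, 3 to 3 for SIN3B, and 5 to 9 for Pol II and the marks. Lost genes ranged from 0 to 1 for Pol II (HOXC5 without parental replicate 2, HOXB9 without SAP30-KO1 replicate 2), 0 to 2 for H3K4me3 (HOXB5 and HOXB6 without parental replicate 2, HOXA10 without parental replicate 1) and 0 to 1 for H3K9Ac (HOXC6, HOXC4 or HOXB5). For Pol II, 1 to 3 genes were worse and 1 to 3 better. For H3K4me3, 4 to 6 were worse and 0 to 1 better, and for H3K9Ac 2 to 4 were worse and 1 to 3 better. Unknown depth limits every absence of a summit, and 2 libraries a group limit every difference.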

Other observations

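Many homeobox genes outside the HOX clusters were also without summits. Of 8 EVX and ParaHox genes, the closest relatives of the clusters, 7 had no promoter summit in any list, among them EVX1 and EVX2, which flank HOXA13 and HOXD13. GSX2, a gene of the developing forebrain, had H3K4me3 in both lists of both lines. Of 33 other homeobox genes, 16 had none in any list, and of all protein-coding genes 32.2% had none. In both lists, 12 of the 33 had SAP30 (against 61.2%), 5 SIN3A (against 31.5%) and 7 SIN3B (against 51.7%). Parental H3K4me3 was present in both lists at 15 (against 63.8%). SIX2, a regulator of kidney development, had promoter summits in both lists of every group. Pol II was present in both lists at 9 of the 33 genes in parental cells and at 5 in SAP30-KO1 cells, and over all protein-coding genes at 57.7% and 53.9%. Of the 4 genes that dropped out, DLX2, LHX4 and MSX2 kept Pol II in 1 SAP30-KO1 list each, so that 1 of the 33 lost it from both lists, against 1.34% of all genes. EN2, a midbrain gene, had Pol II in both parental lists and in neither SAP30-KO1 list, while its H3K4me3 and H3K9Ac summits were in all lists. These genes were named after their values were seen.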
